A study of Homo sapiens with 6 samples.

Results

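The genes described here encode 10 proteins that platelets store in or carry on their alpha-granules: the growth factor gene TGFB1, the granule proteoglycan gene SRGN, the adhesive and matrix protein genes THBS1, SPARC, VWF and MMRN1, the transglutaminase gene F13A1, the granule membrane adhesion receptor gene SELP and the chemokine genes PF4 and PPBP. They were taken by symbol, and all 10 were found among the 61852 genes of the deposited table. They were measured by poly(A)-selected RNA-seq in MEG-01, an established human megakaryoblastic leukaemia cell line that carries the BCR-ABL1 fusion. The knockdown libraries (n = 3) came from cells with a lentiviral short hairpin RNA against MELK (sh2-MELK), a serine/threonine kinase of proliferating cells, and the control libraries (n = 3) from cells with the pLKO.1 control vector. There was 1 hairpin and 1 cell line, and the labels give the same batch for all 6 libraries. They call the 3 libraries of a group biological replicates without saying what separated them, so p-values measure at most the spread between these libraries.

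Alpha-granules are the most abundant secretory granules of platelets and are built in megakaryocytes. Some of their cargo is made by the megakaryocyte itself and sorted through the trans-Golgi network and multivesicular bodies, and some, such as fibrinogen, is taken up from plasma. On activation the granules fuse with the surface, releasing chemokines, growth factors and adhesive proteins and exposing P-selectin. In megakaryocyte maturation PF4, PPBP and VWF are usually among the strongly expressed genes.

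The deposited counts have a property that decides how the low members can be read. The 6 values of 35797 genes (57.9%) were all 0, 1, 2, 10 or 100, and the table looks as if a number drawn from these 5 had been added to each read count. The 10 members are therefore given by 2 analyses. The first is edgeR's quasi-likelihood test on the counts as deposited. The second models each value as a read count plus an unknown number out of the 5, and gives modelled reads per group at the average library size with a 95% interval. This second analysis uses 1 dispersion for all genes, so its p-values and intervals do not take in a gene's own spread between libraries. Library totals were 18945176 to 20410845 counts in sh2-MELK and 20208255 to 21711313 in the control. MELK itself had 16, 124 and 26 counts in sh2-MELK against 219, 206 and 238 in the control. All 3 sh2-MELK values lay below the control values, but the edgeR log2 fold change of -1.98 ± 0.69 (SE) did not pass (edgeR adjusted p = 0.104). It passed in edgeR without sh2-MELK library 2 (-3.33, adjusted p = 0.00286), in edgeR with no filter (-1.98, adjusted p = 0.00961) and in limma-voom (-2.48, adjusted p = 0.0468). DESeq2 and the other scalings gave adjusted p of 0.066 to 0.114. Modelled MELK reads were 20.6 in sh2-MELK and 213.9 in the control (modelled log2 fold change -3.38).

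The members split into 3 well-counted genes, 3 genes of intermediate counts and 4 genes with few or no reads, and they did not move together. SRGN, SPARC, THBS1 and MMRN1 rose in sh2-MELK cells and TGFB1 fell in the edgeR test, SELP, VWF, F13A1 and PPBP did not pass, and PF4 was not tested because it did not pass the filter on low counts. That made 4 higher and 1 lower of 9 tested members, where 8.12% of all 28303 tested genes were called higher and 8.43% lower. Of those 28303 genes, 8895 hold nothing but the 5 added numbers. In a separate edgeR fit of the 5038 genes that average 500 counts or more, called well-counted here, 38.1% were higher and 38.9% lower, and of the 3 members there 2 were higher and 1 lower, so a call by itself sets these 3 genes apart little. With the added number modelled, 4 of 9 members were higher and 3 lower, against 18.6% and 18.5% of 26055 genes. The additional calls were those of VWF and SELP.

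**Figure D1:**
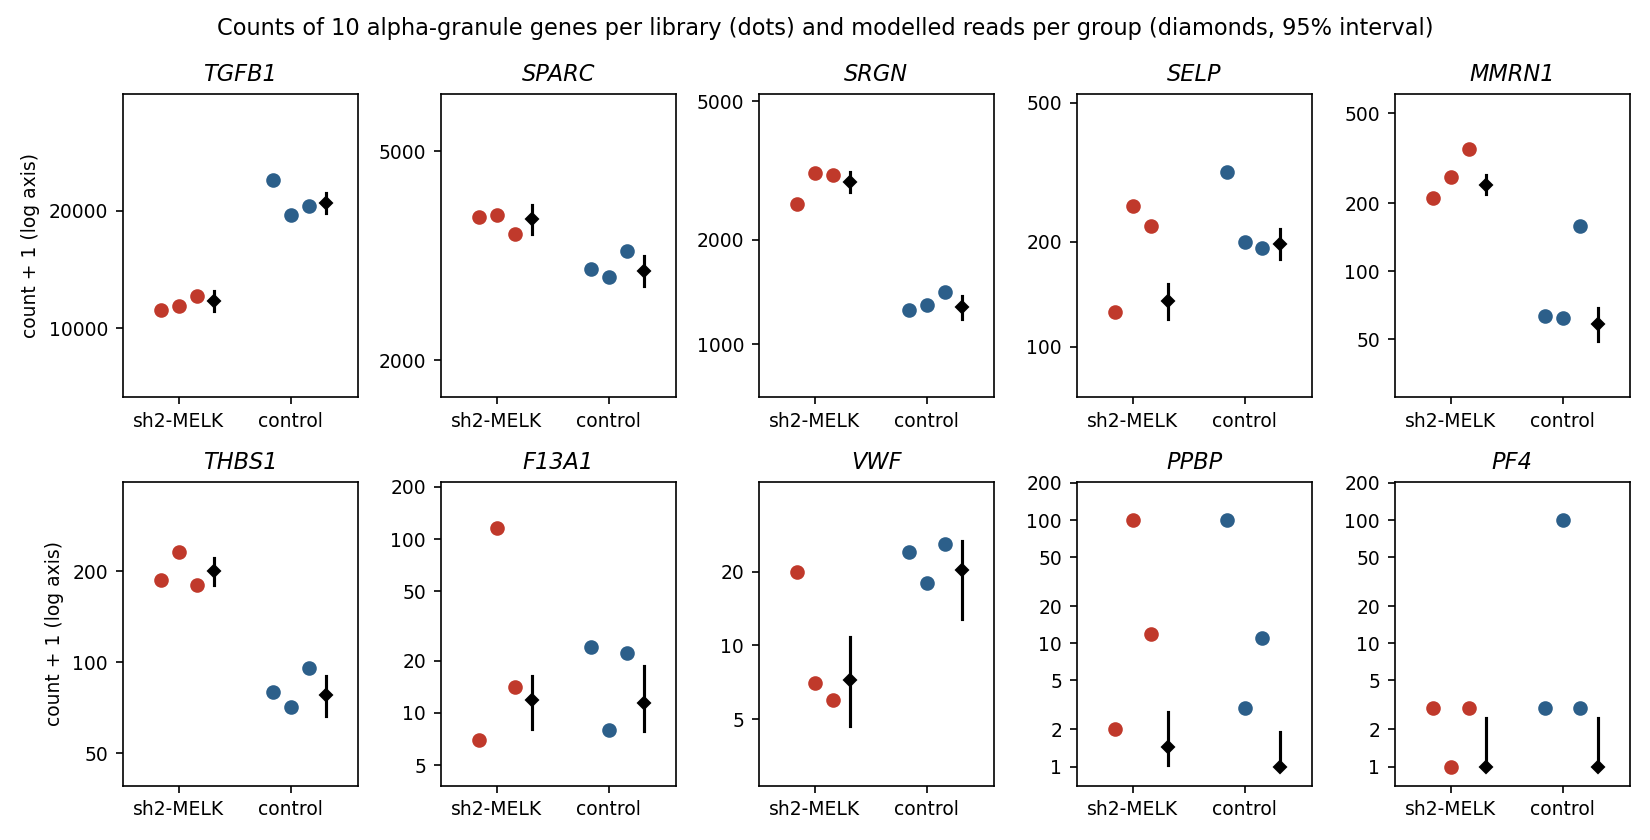
Each panel shows 1 gene on its own log axis (count + 1). Dots are the deposited counts of the 3 sh2-MELK libraries (left, red) and the 3 control libraries (right, blue), and black diamonds with bars are the modelled reads per group with 95% intervals. TGFB1, SPARC, SRGN, MMRN1 and THBS1 show separate groups, while PF4 and PPBP have single values near 100 beside modelled reads near 0.

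Compared per kilobase of exon, TGFB1 and SRGN held most of the members' modelled reads. TGFB1 was at 183.0 in sh2-MELK and 326.4 in the control, in modelled CPM (counts scaled to library size) per kilobase of exon. SRGN was at 121.3 in sh2-MELK and 52.9 in the control, and SPARC at 38.8 in sh2-MELK and 30.9 in the control. The remaining members were at 2.84 or less in both groups, and PF4 and PPBP at 0 in the control. In the control, TGFB1 lay above 99.5% of the modelled genes with an annotated length, SRGN above 96.8%, SPARC above 94.4%, SELP above 73.7%, MMRN1 above 54.5% and THBS1 above 51.6%. The makeup of the group shifted as well. TGFB1 made up 52.5% of the summed level in sh2-MELK and 78.8% in the control, and SRGN 34.8% in sh2-MELK and 12.8% in the control. The sum over the 10 genes was 348.5 in sh2-MELK and 414.1 in the control, and without TGFB1 it was 165.5 in sh2-MELK and 87.7 in the control. In RNA from whole cultures, fewer expressing cells and less RNA per cell cannot be told apart.

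Promoter windows of RefSeq (build GRCh38.p14, 250 bases before to 50 after a transcription start) were held for 7 of the 10 members. The windows of 4 genes are printed because they show the range among these genes: TGFB1, which fell, THBS1 and MMRN1, which rose, and PPBP, which had almost no reads. Each is written in the direction of its gene, 5′ to 3′. Capitals mark matches on either strand to the GATA-type words AGATAA and TGATAA, the ETS-type word CAGGAAG, the SP1-type word GGGCGG and the TATA word TATAAA. Of the 35116 windows in the table, 10.3%, 7.53%, 12.7%, 45.0% and 11.5% hold these words in that order. The windows lie at chr19:41353873-41354172 (minus strand), chr15:39580829-39581128 (plus strand), chr4:89894604-89894903 (plus strand) and chr4:73988141-73988440 (minus strand).
TGFB1: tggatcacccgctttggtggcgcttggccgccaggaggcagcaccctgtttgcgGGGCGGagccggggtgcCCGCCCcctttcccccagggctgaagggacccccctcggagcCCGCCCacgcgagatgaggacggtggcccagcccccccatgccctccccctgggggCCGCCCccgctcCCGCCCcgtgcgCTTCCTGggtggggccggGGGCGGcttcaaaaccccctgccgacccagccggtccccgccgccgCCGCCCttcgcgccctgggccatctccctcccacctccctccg
THBS1: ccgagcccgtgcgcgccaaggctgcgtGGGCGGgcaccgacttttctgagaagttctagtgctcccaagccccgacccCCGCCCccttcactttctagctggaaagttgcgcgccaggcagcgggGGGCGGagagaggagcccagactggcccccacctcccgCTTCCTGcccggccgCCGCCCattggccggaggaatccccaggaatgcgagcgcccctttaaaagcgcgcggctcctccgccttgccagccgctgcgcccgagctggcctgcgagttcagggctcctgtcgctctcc
MMRN1: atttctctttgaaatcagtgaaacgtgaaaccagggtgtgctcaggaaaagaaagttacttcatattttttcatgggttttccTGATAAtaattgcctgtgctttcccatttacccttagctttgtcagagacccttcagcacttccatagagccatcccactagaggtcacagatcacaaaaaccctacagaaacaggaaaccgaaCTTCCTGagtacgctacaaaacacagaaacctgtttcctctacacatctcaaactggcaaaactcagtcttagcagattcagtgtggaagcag
PPBP: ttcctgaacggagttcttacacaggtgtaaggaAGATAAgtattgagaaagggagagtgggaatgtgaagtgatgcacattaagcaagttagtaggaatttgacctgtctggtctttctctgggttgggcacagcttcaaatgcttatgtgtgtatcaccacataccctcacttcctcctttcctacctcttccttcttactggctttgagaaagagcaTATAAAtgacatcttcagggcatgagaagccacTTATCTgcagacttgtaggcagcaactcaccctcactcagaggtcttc

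The TGFB1 and THBS1 windows were alike in these words although the genes moved in opposite directions. The TGFB1 window is 77.3% G and C with 7 matches to GGGCGG and 1 to CAGGAAG, and the THBS1 window is 70.0% G and C with 4 and 1. The MMRN1 window is 42.0% G and C and holds 1 TGATAA and 1 CAGGAAG. A second MMRN1 window, at an upstream start, holds 1 GGGCGG. The PPBP window holds 2 matches to AGATAA and a TATA word that starts at -31, where the first transcribed base is +1. The SELP window holds 1 TGATAA, and those of SPARC and F13A1 held none of the 5 words. No window of a member held a CArG box, the serum response factor element, which 1.29% of all windows hold. A match is a word in the sequence and does not show that a factor binds there.

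TGFB1 encodes transforming growth factor beta 1, which megakaryocytes make as a latent complex and which platelets carry in large amounts. It is annotated in GENCODE release 29 at chr19:41301587-41353911 (GRCh38, minus strand; ENSG00000105329.11). It had 11092, 11407 and 12087 counts in sh2-MELK libraries and 24071, 19485 and 20523 in control libraries. The groups did not overlap, and the lowest control value lay well above the highest sh2-MELK value. TGFB1 averaged 590.1 ± 43.8 CPM in sh2-MELK and 1064 ± 99.8 CPM in the control (SD, n = 3 each), which is -0.85 ± 0.07 on the log2 scale (SE; adjusted p = 7.42e-05 in edgeR). Reads of this size are little touched by the added number, and the modelled log2 fold change was -0.84 (95% interval -0.96 to -0.71). Its base composition and its neighbour are given beside this decrease. TGFB1 has a GC content of 63.5%, against a median of 53.0% among well-counted genes, across which log2 fold change and GC content had a Spearman rho of -0.386 (5031 genes, which are not independent replicates), and with each library's GC and length trend removed its log2 fold change was -0.54 (edgeR adjusted p = 4.81e-06). On the neighbouring gene, 215 exonic bases of TGFB1 are shared with HNRNPUL1, an RNA-binding protein gene on the opposite strand, which had 3253, 3400 and 3315 counts in sh2-MELK and 17536, 16493 and 18153 in the control (log2 fold change -2.35 ± 0.03 (SE), edgeR adjusted p = 3.00e-08). The sources used here do not name a strand setting for the counting, and reads from the shared bases cannot be assigned with certainty.

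The call on TGFB1 was lost in limma-voom (adjusted p = 0.0615) at nearly the same estimate, -0.86. It held in all 6 fits that left out 1 library, with log2 fold changes of -0.95 to -0.76.

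Genes that receive, store or process the members' products were taken as 1 list of 31, of which 22 were tested. There 8 were higher, 5 lower and 9 did not pass, where 8.12% of all tested genes were higher and 8.43% lower. Of the 11 well-counted ones, 6 were higher and 5 lower, against 38.1% and 38.9% of all well-counted genes. The log2 fold changes of these 11 had a median of 0.20, where that of the 5038 well-counted genes was -0.00. TGFBR2, the ligand-binding transforming growth factor beta receptor, rose to 60.2 ± 1.73 CPM in sh2-MELK against 18.5 ± 2.21 CPM in the control (SD, n = 3 each; log2 fold change 1.71 ± 0.09 (SE), edgeR adjusted p = 4.89e-06). ENG, the co-receptor endoglin, fell to 158.8 ± 3.70 CPM in sh2-MELK against 309.1 ± 13.6 CPM in the control (-0.96 ± 0.04). SERPINH1, the collagen chaperone HSP47, rose by 1.11 ± 0.03 on the log2 scale. SELPLG, which encodes the P-selectin ligand PSGL-1, fell to 36.4 ± 0.864 CPM in sh2-MELK against 133.9 ± 2.32 CPM in the control (-1.88 ± 0.04, edgeR adjusted p = 6.37e-08).

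SRGN encodes serglycin, the core protein whose glycosaminoglycan chains bind PF4 and other basic cargo in the granule. It lies at chr10:69088106-69104811 (plus strand; ENSG00000122862.5). It had 2533, 3116 and 3058 counts in sh2-MELK libraries and 1257, 1293 and 1413 in control libraries. The groups were far apart, with sh2-MELK library 1 the lowest of its group. SRGN averaged 148.5 ± 17.6 CPM in sh2-MELK and 65.9 ± 3.84 CPM in the control (SD, n = 3 each), a log2 ratio of 1.17 ± 0.09 (SE; adjusted p = 3.28e-05 in edgeR). The modelled value was 1.20 (95% interval 1.06 to 1.34). SRGN has a low GC content of 38.1%, and with each library's GC and length trend removed its change was 0.75 on the log2 scale (edgeR adjusted p = 4.83e-10).

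The enzymes that build glycosaminoglycan chains on proteoglycans such as serglycin were taken as a further list. Of 24 tested, 6 were higher, 2 lower and 16 did not pass, where 8.12% of all tested genes were higher and 8.43% lower. Of the 12 well-counted ones, 5 were higher and 3 lower, against 38.1% and 38.9% of all well-counted genes. Their median log2 fold change was 0.05. NDST1, a heparan sulphate N-deacetylase and N-sulphotransferase, rose to 335.2 ± 2.51 CPM in sh2-MELK against 208.2 ± 1.88 CPM in the control (0.69 ± 0.03, edgeR adjusted p = 7.82e-07). FAM20B, the xylose kinase of the linkage region, rose by 0.48 ± 0.12 (edgeR adjusted p = 0.0234), a call lost without sh2-MELK library 1, control library 2 or control library 3 (adjusted p of 0.0711 to 0.163). B3GAT3, which adds the last sugar of the linkage region, fell by 0.73 ± 0.06, and CHST12, a chondroitin sulphotransferase, fell by 0.37 ± 0.09 (edgeR adjusted p = 0.0286). The CHST12 call was lost in 5 of the 6 fits without 1 library, and in limma-voom, with a log2 fold change of -0.14 after the GC and length correction.

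**Figure D2:**
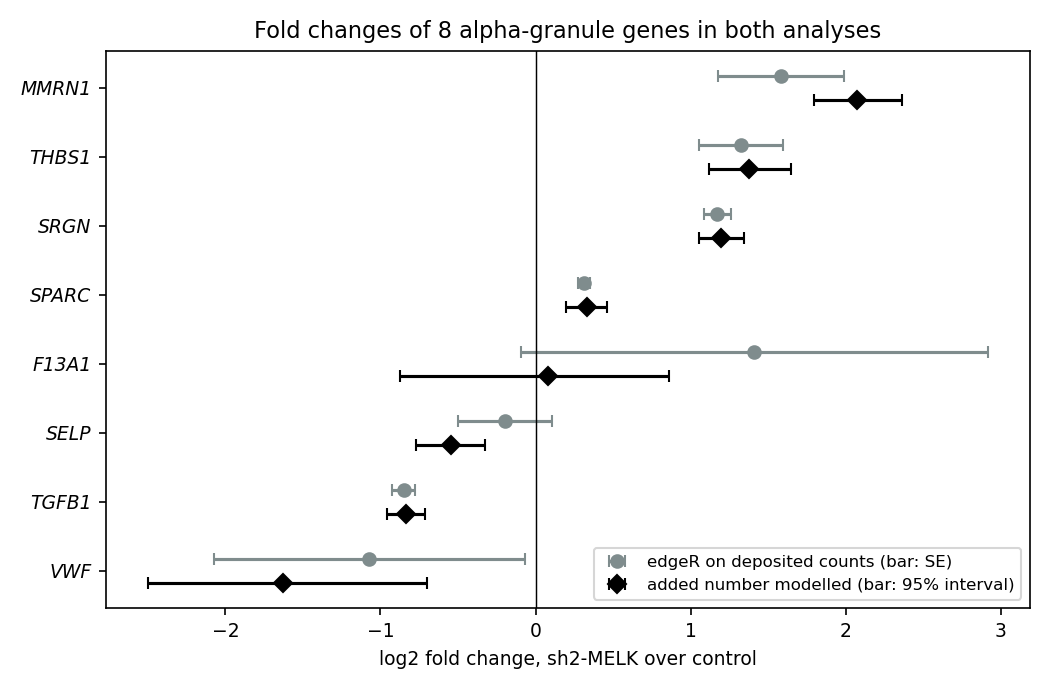
Log2 fold change of sh2-MELK over control for the 8 members with enough reads for both analyses, from the highest modelled value at the top. Grey dots are edgeR on the deposited counts with bars of 1 SE, and black diamonds are the modelled values with 95% intervals. SRGN, SPARC and TGFB1 differ little between the analyses, and MMRN1, VWF and SELP lie further from 0 when modelled. F13A1 lies at 1.41 in edgeR and near 0 when modelled.

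THBS1 encodes thrombospondin-1, an adhesive glycoprotein of the alpha-granule that binds CD36 and CD47 and can activate latent TGF-beta. It lies at chr15:39581079-39599466 (plus strand; ENSG00000137801.11). It had 187, 231 and 179 counts in sh2-MELK libraries and 79, 70 and 95 in control libraries. The groups did not overlap. THBS1 averaged 10.2 ± 1.15 CPM in sh2-MELK and 4.05 ± 0.523 CPM in the control (SD, n = 3 each), or 1.33 ± 0.27 on the log2 scale (SE; adjusted p = 0.00857 in edgeR). Modelled reads were 199.2 (95% interval 179.4 to 220.8) in sh2-MELK and 76.8 (65.6 to 89.0) in the control, a log2 fold change of 1.38 (1.12 to 1.64). The edgeR call was lost whichever library was left out (log2 fold change 1.19 to 1.45, adjusted p of 0.0679 to 0.218), in fits that also let in 40268 to 40434 genes against 28303. It was lost as well with no filter (adjusted p = 0.103). The modelled call was lost only without sh2-MELK library 2 (adjusted p = 0.0868). FSIP1, on the opposite strand, shares 448 exonic bases with THBS1 and had 1, 2 and 13 counts in sh2-MELK libraries and 1, 101 and 1 in control libraries.

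MMRN1 encodes multimerin 1, a large soluble protein of megakaryocytes and endothelial cells that binds factor V in the granule. It lies at chr4:89879532-89954629 (plus strand; ENSG00000138722.10). It had 209, 259 and 345 counts in sh2-MELK libraries and 62, 61 and 158 in control libraries. The lowest sh2-MELK value lay above the highest control value, and control library 3 stood apart from the other two. At the fitted reads of each group, the model assigned an added 100 to control library 3 and to sh2-MELK library 3. The probability was 100% each given that fit, and 58 and 245 are left. As deposited, MMRN1 averaged 13.9 ± 3.95 CPM in sh2-MELK and 4.64 ± 2.66 CPM in the control (SD, n = 3 each), or 1.58 ± 0.41 on the log2 scale (SE; adjusted p = 0.0313 in edgeR). Modelled reads were 240.1 (95% interval 218.1 to 264.4) in sh2-MELK and 57.2 (47.8 to 67.6) in the control. That is a log2 fold change of 2.07 (1.79 to 2.36), and it held in all 6 modelled fits without 1 library, at 2.01 to 2.16. The edgeR call held only without control library 3 among the 6 such fits (adjusted p of 0.00328 to 0.237), and it was lost in limma-voom (adjusted p = 0.0527). Factor V itself (F5) had 0 modelled reads in sh2-MELK and 0.532 in the control.

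SPARC encodes osteonectin, a collagen-binding matricellular protein that platelets store and release. It lies at chr5:151661096-151687165 (minus strand; ENSG00000113140.11). It had 3750, 3776 and 3472 counts in sh2-MELK libraries and 2986, 2875 and 3230 in control libraries. The groups did not overlap, but the distance was small. SPARC averaged 187.3 ± 3.16 CPM in sh2-MELK and 151.0 ± 5.88 CPM in the control (SD, n = 3 each), or 0.31 ± 0.04 on the log2 scale (SE; adjusted p = 0.000564 in edgeR), with 0.33 (95% interval 0.20 to 0.46) when modelled. With each library's GC and length trend removed it was 0.13 (edgeR adjusted p = 0.00267), and with a wider dispersion in the model it did not pass (adjusted p = 0.147).

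VWF encodes von Willebrand factor, the adhesive multimer that tethers platelets through the GP1BA receptor. It lies at chr12:5948874-6124770 (minus strand; ENSG00000110799.14). Its counts were 19, 6 and 5 in sh2-MELK libraries and 23, 17 and 25 in control libraries. These are low for an mRNA of this length, and sh2-MELK library 1 lay among the control values. In edgeR the log2 fold change of -1.07 ± 1.00 (SE) did not pass (edgeR adjusted p = 0.619). Modelled reads were 6.21 (95% interval 3.67 to 9.77) in sh2-MELK and 19.2 (11.8 to 25.6) in the control, a log2 fold change of -1.63 (-2.50 to -0.70; adjusted p = 0.00468, likelihood-ratio test across 26055 genes). At the fitted reads of its group, the model gave sh2-MELK library 1 an added 10 with a probability of 99.7%. Without that library the modelled value was -2.09 (adjusted p = 0.00176). All 6 modelled fits without 1 library passed, with adjusted p of 0.00176 to 0.0435.

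F13A1 encodes the A subunit of coagulation factor XIII, the transglutaminase that cross-links fibrin. It lies at chr6:6144085-6321013 (minus strand; ENSG00000124491.16). It had 6, 115 and 13 counts in sh2-MELK libraries and 23, 7 and 21 in control libraries. The groups overlapped, and the 115 stood far above all other values. The edgeR log2 fold change of 1.41 ± 1.51 (SE) did not pass (edgeR adjusted p = 0.692), and it was -0.76 without sh2-MELK library 2. At the fitted reads of its group, the model read the 115 as 15 and an added 100 with a probability of 100%. Modelled reads were 10.9 (95% interval 7.04 to 15.3) in sh2-MELK and 10.3 (6.81 to 17.6) in the control, a log2 fold change of 0.08 (-0.87 to 0.86), so a difference of up to about that interval was not detectable at this depth.

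SELP encodes P-selectin, the granule membrane receptor that moves to the surface on activation and binds PSGL-1 on leukocytes. It lies at chr1:169588849-169630193 (minus strand; ENSG00000174175.17). It had 125, 252 and 221 counts in sh2-MELK libraries and 316, 198 and 191 in control libraries. The groups overlapped, and the edgeR log2 fold change of -0.20 ± 0.30 (SE) did not pass (edgeR adjusted p = 0.880). Both groups hold values about 100 apart. At the fitted reads of each group, the model assigned an added 100 to sh2-MELK libraries 2 and 3 and to control library 1. The probability was 100% each given that fit, and 152, 121 and 216 are left. On that reading modelled reads were 134.2 (95% interval 119.3 to 150.6) in sh2-MELK and 196.2 (177.1 to 216.9) in the control, a log2 fold change of -0.55 (-0.77 to -0.33; adjusted p = 1.27e-05). Sh2-MELK library 1 decides it. Without that library the modelled log2 fold change was 0.28 (adjusted p = 0.0514), and with a wider dispersion it was -0.56 and did not pass (adjusted p = 0.0857), so these counts do not settle the direction for SELP.

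PF4 and PPBP encode platelet factor 4 (CXCL4) and pro-platelet basic protein, the precursor of CXCL7, and stand side by side on chromosome 4 (chr4:73981077-73982124 and chr4:73987038-73988197, both minus strand; ENSG00000163737.5 and ENSG00000163736.4). PF4 had 2, 0 and 2 counts in sh2-MELK libraries and 2, 100 and 2 in control libraries. All 6 values are among the 5 added numbers, and the model gave 0 reads in both groups, with 95% upper limits of 1.501 reads in sh2-MELK and 1.497 in the control. PPBP had 1, 100 and 11 counts in sh2-MELK libraries and 100, 2 and 10 in control libraries. Only the 11 is not itself an added number. Modelled PPBP reads were 0.442 (95% interval 0.0266 to 1.79) in sh2-MELK and 0 (upper limit 0.895) in the control, and the edgeR value was 0.03 ± 1.98 on the log2 scale (SE; adjusted p = 1.0). At this depth no PF4 expression was detectable in either group, and PPBP reads were at most 1.79 in sh2-MELK and 0.895 in the control by these intervals. PF4V1, the near-identical copy of PF4 with which reads could be shared, also held only the added numbers.

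**Figure D3:**
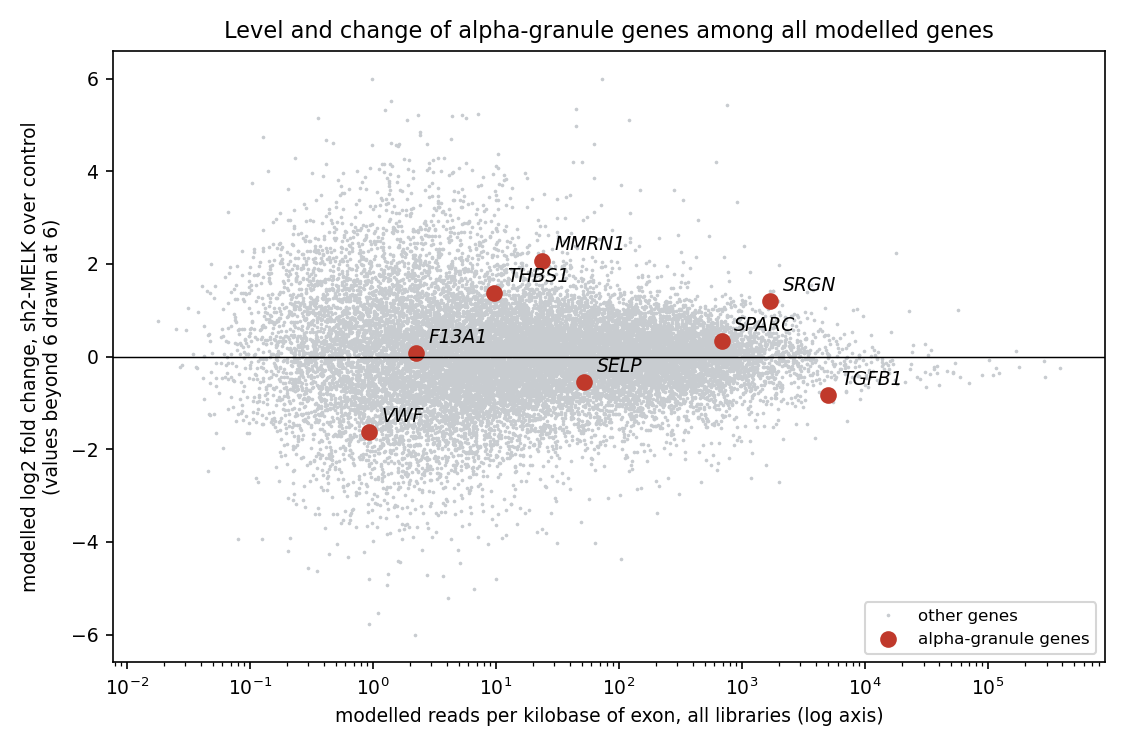
Modelled log2 fold change of sh2-MELK over control against modelled reads per kilobase of exon (log axis) for all genes with modelled reads in both groups (grey) and the 8 members with reads (red, labelled). TGFB1, SRGN and SPARC lie at high levels, and MMRN1 and THBS1 lie above 0 at levels where the grey points also spread widely.

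Other proteins of the alpha-granule were taken as a list of 50 further cargo genes, of which 40 were tested. Here 13 rose, 6 fell and 21 did not pass, where 8.12% of all tested genes were higher and 8.43% lower. Among the 13 well-counted ones, 9 rose and 3 fell, against 38.1% and 38.9% of all well-counted genes. Log2 fold changes of these 13 had a median of 0.57, and those of all well-counted genes had a median of -0.00. With the added number modelled, 22 of 45 were higher and 6 lower, against 18.6% and 18.5% of all modelled genes. A2M, the protease inhibitor alpha-2-macroglobulin, rose to 78.7 ± 2.97 CPM in sh2-MELK against 4.13 ± 1.73 CPM in the control (SD, n = 3 each; log2 fold change 4.24 ± 0.21 (SE), edgeR adjusted p = 3.77e-06). A2M is low enough in the control for the added number to matter there. Its modelled reads were 1549 in sh2-MELK and 44.7 in the control, a log2 fold change of 5.12, with 4.09 to 5.51 when 1 library was left out. MMP1, an interstitial collagenase, rose to 167.3 ± 11.8 CPM in sh2-MELK against 18.4 ± 4.14 CPM in the control (3.18 ± 0.14). TIMP3, an inhibitor of metalloproteinases, fell to 208.1 ± 4.03 CPM in sh2-MELK against 489.1 ± 11.8 CPM in the control (-1.23 ± 0.03), and APLP2, a relative of the amyloid precursor protein, fell to 105.7 ± 3.19 CPM in sh2-MELK against 251.3 ± 12.1 CPM in the control (-1.25 ± 0.04). APLP2 is also in the list of membrane proteins. Of the 50, 13 had fewer than 5 modelled reads in both groups or held only the 5 added numbers and were not modelled. Among them were the 3 fibrinogen chain genes, PDGFB, CXCL5, IGF1 and F5.

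Granule membrane proteins gave 9 higher, 4 lower and 7 not passing of 20 tested, where 8.12% of all tested genes were higher and 8.43% lower. Of the 12 well-counted ones, 7 were higher and 3 lower, against 38.1% and 38.9% of all well-counted genes. Their median log2 fold change was 0.29. SLC2A3, the glucose transporter GLUT3 of the alpha-granule membrane, rose to 1671 ± 48.5 CPM in sh2-MELK against 581.4 ± 41.8 CPM in the control (1.52 ± 0.05, edgeR adjusted p = 5.49e-07), and the small GTPase gene RAP1B rose by 0.97 ± 0.09. ITGA2B, the platelet integrin alpha-IIb, fell to 1061 ± 20.8 CPM in sh2-MELK against 2024 ± 63.9 CPM in the control (-0.93 ± 0.03), a call lost in limma-voom (adjusted p = 0.374). GP1BB and TREML1 held only the 5 added numbers and were not modelled.

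Genes of granule formation and secretion gave 8 higher, 3 lower and 15 not passing of 26 tested, where 8.12% of all tested genes were higher and 8.43% lower. Of the 15 well-counted ones, 6 were higher and 4 lower, against 38.1% and 38.9% of all well-counted genes. Their median log2 fold change was 0.09. The target-membrane SNAREs SNAP23 (1.06 ± 0.05, edgeR adjusted p = 3.99e-06) and STX11 (0.80 ± 0.08) rose, and UNC13D, which primes granules for fusion, fell to 291.5 ± 8.40 CPM in sh2-MELK against 510.7 ± 17.5 CPM in the control (-0.81 ± 0.04). STX4 was lower by -0.40 ± 0.11 (edgeR adjusted p = 0.0416), and its call was lost with several alternatives, at -0.18 after the GC and length correction (adjusted p = 0.126).

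**Figure D4:**
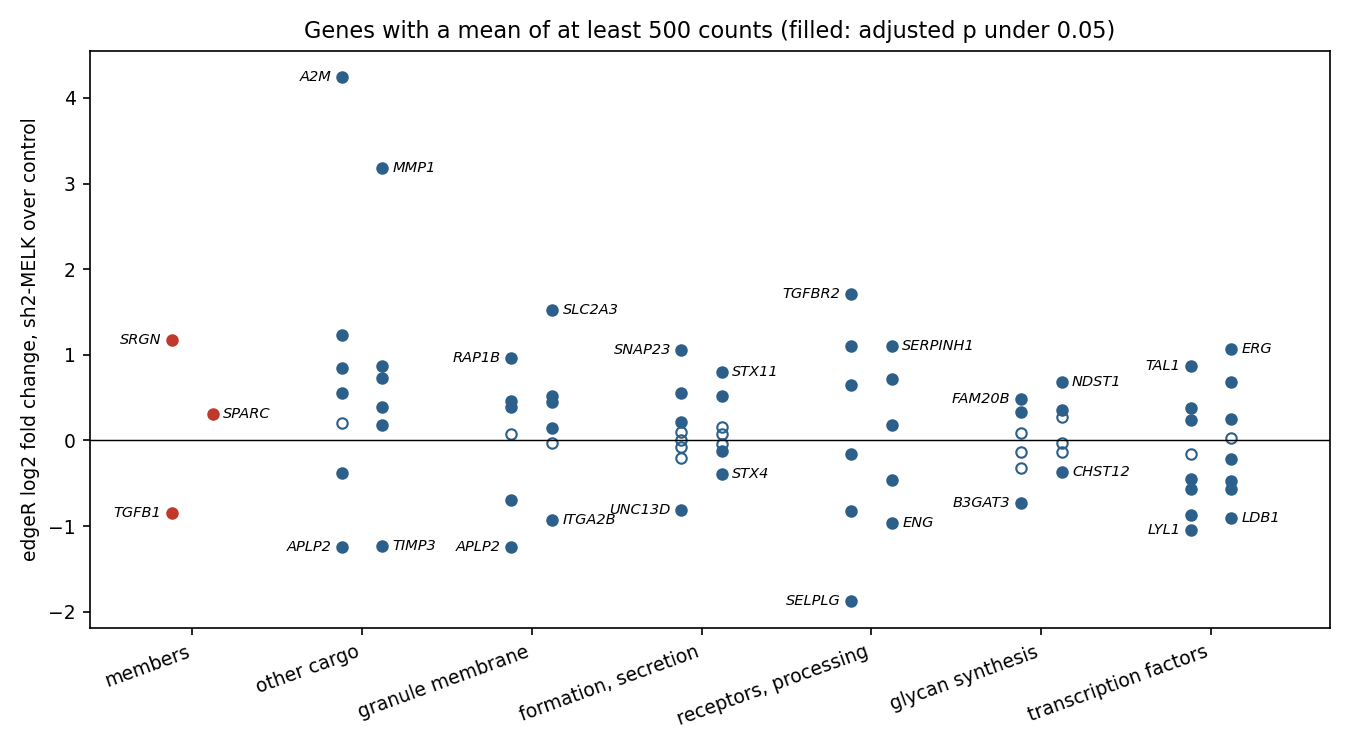
EdgeR log2 fold changes of sh2-MELK over control for well-counted genes (500 counts or more on average), from left to right the members (red) and 6 lists of related genes (blue). Filled points have an adjusted p under 0.05. SRGN and SPARC lie above 0 and TGFB1 below it, and every list has genes on both sides of 0.

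Transcription factors of the megakaryocyte lineage, which drive many of the granule genes, gave 7 higher, 8 lower and 3 not passing of 18 tested. Among all tested genes, 8.12% were higher and 8.43% lower. Of the 16 well-counted ones, 6 were higher and 8 lower, against 38.1% and 38.9% of all well-counted genes. The largest changes among well-counted ones were rises of ERG (1.07 ± 0.08) and TAL1 (to 1041 ± 13.1 CPM in sh2-MELK against 567.8 ± 10.3 CPM in the control, 0.87 ± 0.03, edgeR adjusted p = 2.05e-07) and decreases of LYL1 (-1.04 ± 0.05) and LDB1 (-0.91 ± 0.04). Several members are also made by endothelial cells, fibroblasts or monocytes, so markers of these cells and of other blood lineages were summed. The 16 endothelial markers summed to 1132 to 1168 CPM in sh2-MELK and 1089 to 1131 CPM in the control. Of 15 tested in edgeR, 5 were higher and 2 lower, against 8.12% and 8.43% of all tested genes. Their median log2 fold change was -0.001. Of the 6 well-counted ones, 4 were higher and 1 lower, against 38.1% and 38.9% of all well-counted genes, with a median of 0.35. ERG and ENG, named above, are among these markers, and the defining gene CDH5 had 1.16 modelled reads in sh2-MELK and 3.52 in the control. The 13 fibroblast and stromal markers summed to 19.03 to 39.4 CPM in sh2-MELK and 17.8 to 27.4 CPM in the control, and none was well-counted. None of 9 tested passed in edgeR (median log2 fold change 0.13). With the added number modelled 4 of 13 were higher and 2 lower, against 18.6% and 18.5% of all modelled genes. The 18 monocyte and granulocyte markers summed to 311.9 to 339.5 CPM in sh2-MELK and 498.3 to 537.9 CPM in the control, and 6 of them, including MPO and CD163, had fewer than 5 modelled reads in both groups. The 22 erythroid markers summed to 1126 to 1160 CPM in sh2-MELK and 2284 to 2341 CPM in the control. Of 20 tested erythroid markers 0 were higher and 11 lower, against 8.12% and 8.43% of all tested genes. Of the 13 well-counted ones, 1 was higher and 11 lower, against 38.1% and 38.9% of all well-counted genes. Their median log2 fold change was -0.98. The 21 megakaryocyte markers summed to 1855 to 1917 CPM in sh2-MELK and 2844 to 2964 CPM in the control. Of 19 tested megakaryocyte markers 2 were higher and 5 lower, against 8.12% and 8.43% of all tested genes. The median log2 fold change was -0.12 over these 19 and -0.13 over the 7 well-counted ones. ITGA2B alone, described above, was at 1061 CPM in sh2-MELK and 2024 CPM in the control. The 14 lymphocyte markers summed to 111.3 to 116.3 CPM in sh2-MELK and 321.3 to 330.5 CPM in the control. The 12 mast cell and basophil markers summed to 801.6 to 810.2 CPM in sh2-MELK and 1005 to 1046 CPM in the control. Of 14 tested monocyte and granulocyte markers 1 was higher and 3 lower, against 8.12% and 8.43% of all tested genes. Of 8 tested lymphocyte markers 0 were higher and 1 lower. Of 11 tested mast cell and basophil markers 4 were higher and 4 lower. The part of these shifts in the members' values was not tested.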

How the data were processed

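The 6 libraries were grouped by their titles, and table columns were matched to samples by library name. Per the file headers the authors deposited raw whole-number counts per gene. Per the submitters' processing notes, tools in the pipeline included STAR, HTSeq, fastp, FastQC, R 4.3.3 and DESeq2 (roles not listed), on GRCh38. For counting mode, strand and annotation release, the entry is not given in the sources used here. Symbols matched 61803 of 61852 gene IDs (99.9%), and positions, exon lengths and GC content are from GENCODE release 29.

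Counts were tested with edgeR 4.0.16 (TMM, filterByExpr, robust quasi-likelihood F-test, Benjamini-Hochberg adjustment over all tested genes, threshold 0.05) without a block. CPM values use TMM-scaled library sizes. The SE is the log2 fold change divided by the square root of F. The model of the added number fitted a negative binomial count plus 0, 1, 2, 10 or 100 at equal odds to the 26055 genes with at least 1 value outside these numbers, with a dispersion of 0.00292 estimated by edgeR from genes averaging 500 counts or more, a likelihood-ratio test and 95% profile intervals, which cover error under this model only. Probabilities of an added number are computed at the group's fitted reads and leave out the error of that fit. Whether such a number was added, and where, is not known. Both analyses were also run on simulated data, with an outcome that is not given here. Alternatives were other scalings, filters, DESeq2 1.42.0, limma-voom (limma 3.58.1), the replicate block, a GC and length correction and each library left out. A model dispersion of 0.02 and modelled fits without each library were chosen after the data were seen. Genes outside the members were named by rule: MELK and, in each list, up to 2 with the largest rise and 2 with the largest decrease among called genes averaging 500 counts or more. HNRNPUL1, F5, PF4V1, FSIP1 and the low marker genes were named after their values were seen. The members, lists and rule were chosen with earlier results of these data known.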

Additional observations from a re-analysis of the deposited data

How the results depend on the processing

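4683 genes passed in edgeR, and 9668 with the added number modelled. Leaving out 1 library gave 3591 to 3951 in edgeR and 8609 to 8992 in the model (8834, 8652 and 8822 without sh2-MELK library 1, 2 and 3, and 8609, 8992 and 8870 without control library 1, 2 and 3). 4 members were called higher, and 2 among well-counted genes or with the GC and length correction, with or without the replicate block, because only 3 members reach that depth. The number called higher was 3 with no filter, in limma-voom and in the model with dispersion 0.02. Without 1 library it was 2 to 3 in edgeR and 3 to 4 in the model. 1 member was called lower, against 0 in limma-voom, 3 in the model and 2 in the model with dispersion 0.02, and without 1 library it was 1 in edgeR and 2 to 3 in the model. The 3 members PPBP, F13A1 and SELP, which had not passed in edgeR, turned their sign. PPBP was at -0.19 in limma-voom and ranged from -2.53 to 2.67 without 1 library. F13A1 ranged from -0.76 to 1.86 in edgeR and from -1.33 to 0.41 in the model without 1 library (-0.021 without sh2-MELK library 3, -0.85 without control library 2). SELP ranged from -0.38 to 0.076 in edgeR and from -0.64 to 0.28 in the model. Same-numbered libraries did not deviate together (correlations 0.0997, -0.0124 and -0.0801), so the numbers were not taken as pairs. The replicate block gave 4182 calls and left the members' calls as they were, at 4 higher and 1 lower. Scaling by library size alone gave 2699 higher and 2073 lower, against 2297 and 2386, and the members' 4 and 1 stayed. DESeq2 gave 6528 calls and also 4 and 1. With few reads, precision is limited most for VWF, F13A1, PPBP and PF4.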
